A study of Glycine max with 9 samples.

Results

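In 38 soybean (Glycine max) genes, root tip libraries with and without sucrose differed in the mean estimated share of a transcript form. The forms were not exchanged in every sucrose library of each gene. The genes were taken from 10778 gene identifiers of the deposited transcript table that had at least 2 transcripts, carried only names starting with LOC, and had a summed FPKM (fragments of a transcript per unit of its length and of sequencing) of at least 1 in each of 9 libraries and of at least 5 on average. For every transcript, its share was its FPKM as a percentage of the summed FPKM of its gene. Members were chosen by these shares: a gene was taken if 1 of its transcripts had a mean share that differed by at least 50 percentage points between the 3 control and the 6 sucrose libraries, with no overlap of the control and the sucrose libraries. LOC100803911 and LOC100811437 also met these limits and were left out, so 38 of 40 genes remained. Because the shares of control and sucrose libraries chose the members, all share differences between those libraries are given as a description with no test.

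The plants were of the cultivar Williams 82 and grew for 4 weeks in half-strength Hoagland nutrient solution. The control (t0, libraries 1 to 3) had no sucrose added, and the other plants stood in solution brought to 10 mM sucrose for 20 min (t20, libraries 4 to 6) or 40 min (t40, libraries 7 to 9). Sections of about 2 cm that included the root tip were collected from 1 plant for each library, so n = 3 at each time. The sources name no mock addition to the control and no other sugar, and the control was harvested at 0 min, so that sucrose, the handling of the solution and the time since its addition cannot be told apart.

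A gene can give rise to several mature mRNAs. Transcription can begin at different start sites, introns can be removed or kept, alternative splice sites can be used, and the 3′ end can be cut at different places. In plants, retained introns are a frequent kind of difference between forms, and such RNAs may stay in the nucleus, be translated into another protein or be degraded by nonsense-mediated decay, which removes mRNAs with an early stop codon. Splicing patterns in plants are known to respond to light, temperature, stress and sugars. A sum over all forms of a gene does not show any of this, since 1 form can replace another while the sum stays level.

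In the check of the tissue, the root genes IFS1 and IFS2 (isoflavone synthases) had an FPKM of 184 to 294 and 12.3 to 220, and 4 of the 10 root-preferred genes stayed below 1 in every library. The 10 genes summed to an FPKM of 214 to 336 in the t0 libraries, 213 to 404 in those of t20 and 473 to 621 in those of t40. The higher sum at t40 lay mainly in IFS2, with 12.3 to 22.9 at t0 and 135 to 220 at t40, and in NRT2. NRT2 had 0.902 to 17.6 at t0 and 82.5 to 134 at t40, while IFS1 had 198 to 294 and 246 to 274. Of 26 shoot-preferred genes, 19 stayed below 1 in every library, while RBCS2 (small subunit of Rubisco) reached 82.5 to 332 and CAB3 (chlorophyll a/b binding protein) 16.8 to 335. The shoot-preferred genes summed to 147 to 359 in the t0 libraries, 171 to 692 in those of t20 and 114 to 147 in those of t40, and library 6 had the highest value. The part of these differences in the shares was not tested. In pieces of whole root, fewer cells of a type and less RNA per cell cannot be told apart, and neither can a form exchanged within a cell and a change in the mixture of cells. The study states the depth and alignment rate of each library, both lower on the whole at t40, but FPKM values keep no depth and the reads behind a share were not computed here, so that the part of depth in the shares was not tested. An FPKM of 0 is given as listed and not as absence.

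The rule took 40 of the 10778 genes (0.371%), 2 of which were left out. The largest share difference of a gene between control and sucrose had a median of 55.1 points in the 38 members and of 8.15 points over all 10778 genes. If overlap of the libraries was allowed, 74 genes reached 50 points. Members just inside the limit were LOC100806690 with 50.3, LOC100776157 with 50.3 and LOC100813157 with 50.03 points, and the genes just outside were LOC102667405 with 49.9, LOC100794176 with 48.9 and LOC100803056 with 48.8 points. The rule was met by a form that gained share in 17 members and by a form that lost share in 21. In each member, the form with the largest positive difference is called the gained form and the form with the largest negative difference the lost form, which are names taken from the means only. In 19 members both forms were without overlap between control and sucrose libraries.

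**Figure D1:**
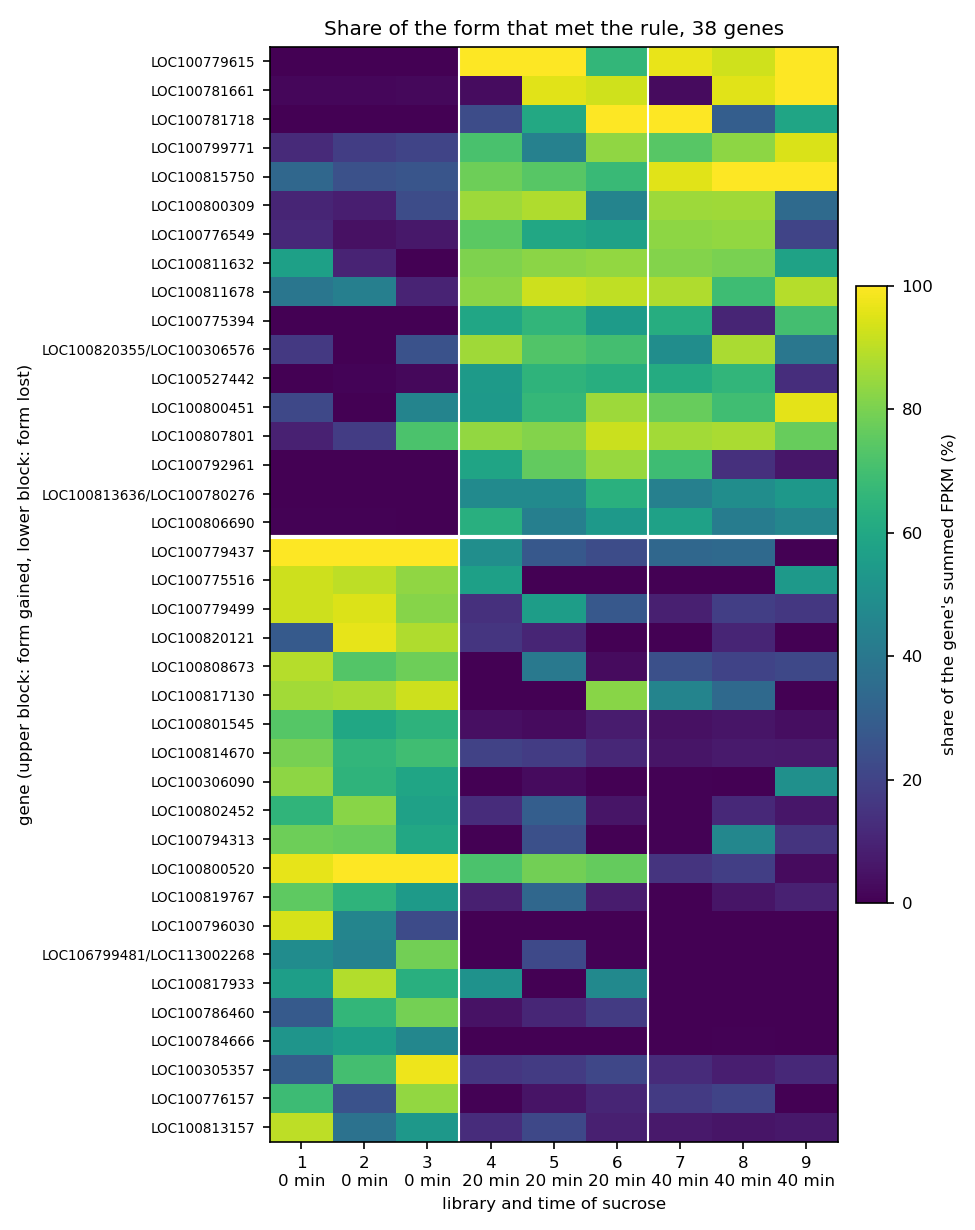
Share of the form that met the rule, as a percentage of the summed FPKM of the gene, for 38 genes (rows) in 9 libraries (columns, 3 for each time). The upper block holds the 17 genes in which the form gained share and the lower block the 21 in which it lost share, and single sucrose libraries of many genes stand nearer to the controls than the others.

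The members lay on 16 chromosomes of the Glycine_max_v4.0 assembly, with 5 on chromosome 9, 4 each on chromosomes 7 and 11 and 1 to 3 on each of the other 13, and 24 of the 38 were on the plus strand. They had 2 to 12 transcripts in the table (median 4, against 3 over all genes the rule could take). The reference names 37 as protein coding and gives no product, and the other, LOC106799481/LOC113002268, joins a long noncoding RNA with a small nucleolar RNA. In 3 members 1 identifier joins more than 1 annotated gene. Both exchanged forms were RefSeq annotated in 12 members. The gained form was assembled from the reads while the lost form was annotated in 14, the reverse held in 7, and both were assembled in 5.

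Compared by their positions, the gained and lost forms had a 5′ or 3′ end moved by over 100 bases in 16 members (42.1%), the same ends but another number of exons in 15 (39.5%), and the same ends and exon number in 7 (18.4%). Among all genes the rule could take, the pair of transcripts with the highest FPKM fell into these classes in 40.3%, 35.2% and 24.5%. The classes thus stood in similar proportions in both sets of genes, and the difference was not tested. In 13 members 1 of the forms was longer in spite of having fewer exons and shared both ends with the other within 100 bases, which is how a form that keeps an intron appears in such a table. That was 34.2% of the members and 29.3% of all genes. The gained form was the longer one with fewer exons in 6 of the 13 and the lost form in 7, so both directions were present. The exon sequences were not analysed here, so whether the extra bases are a retained intron was not tested.

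LOC100779615 (chromosome 7, 41825473 to 41834770, plus strand) showed the largest share difference of all members. Its annotated 24-exon form of 4937 bases was listed at 0% in each control library and held 100, 100, 66.3, 96.5, 92.7 and 100% in libraries 4 to 9. The control libraries were instead carried by a pair of 23-exon forms of 5033 and 5103 bases, and all 6 sucrose libraries lay at least 66.3 points above the controls. Taking forms with the same exon number and ends within 50 bases together, a choice made after seeing the data, the 23-exon forms held 98.5, 100 and 98.3% at t0 and were listed at 0% in every sucrose library. Such forms are called near-identical below from exon number and ends alone, since their inner exons were not compared. The joined 24-exon forms then held 100% in each of the 6 sucrose libraries, a difference of 98.9 points. The lost form was the longer one, by 96 bases, with 1 exon fewer and the same ends. The exchange came with a higher sum, since the summed FPKM was 2.57, 2.81 and 1.26 at t0, 9.34, 3.42 and 4.95 at t20, and 16.4, 13.9 and 15.4 at t40.

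The lost form was also the longer one with fewer exons in LOC100808673, LOC100811632, LOC100800451, LOC100807801, LOC100792961 and LOC100806690. In LOC100808673 (chromosome 15), the assembled 17-exon form of 2523 bases held 89.0, 73.3 and 77.9% at t0, and 0, 40.5, 2.80, 24.2, 20.3 and 21.8% in libraries 4 to 9. The annotated 18-exon form of 2442 bases took its place, with 11 to 26.7% at t0 and 49.5 to 100% under sucrose. The sum of this gene hardly moved, at 4.89 ± 0.938, 5.32 ± 0.647 and 4.97 ± 0.475 FPKM (mean ± SD, n = 3) at t0, t20 and t40. LOC100806690 (chromosome 6) was alike in its level sum of 11.6 ± 2.77, 10.8 ± 2.30 and 12.1 ± 0.657 FPKM. Its annotated 11-exon form of 1442 bases held 0.479, 0.513 and 0.343% at t0 and 63.1, 43.0, 53.5, 57.2, 42 and 45.9% under sucrose. No library of either condition came within 41.4 points of the other condition for that form. The lost 9-exon form of LOC100806690 held 56.1, 58.1 and 27.2% at t0 and 13.1 to 24.9% under sucrose (-28.0 points). Its 2 near-identical 12-exon forms, joined, lost more (-32.0 points). The longer lost form with fewer exons in this gene thus depends on leaving those apart. In LOC100811632 the groups only just separated, since library 1 had 56.9% of the gained 10-exon form and library 9 had 57.6%, a gap of 0.696 points. Its lost 9-exon form held 26.0, 87.5 and 0% at t0 and 26.2% in library 9. Control library 3 had 100% in an annotated 10-exon form, so the lost 9-exon form does not describe that library.

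In LOC100800451 (chromosome 20) the annotated 10-exon form of 3254 bases held 21.6, 0 and 45.2% at t0 and 54.1, 66.4, 85.5, 76.6, 69.5 and 95.8% under sucrose. With its near-identical 10-exon form joined to it, the share was 94.9, 0 and 45.2% at t0 and 73.4 to 99.2% under sucrose, so control library 1 lay inside the sucrose range and the gene no longer met the rule. Its summed FPKM was also above all controls in each sucrose library, with 8.09, 5.36 and 5.2 at t0 against 30.7, 13.6 and 38.3 at t20 and 28.9, 28.0 and 27.5 at t40. In LOC100792961 the share of the gained form differed widely among the sucrose libraries. The assembled 19-exon form of 6856 bases was listed at 0% at t0, held 58.4, 76.0 and 84.7% at t20, and 69.1, 13.7 and 6.18% at t40. In LOC100807801 control library 3 stood at 71.7% for the gained 16-exon form, where libraries 1 and 2 had 9.29 and 17.6%. The sucrose libraries lay between 76.8 and 91.8%. The gene no longer met the rule without control library 1 or 2, with 39.8 and 44.0 points.

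The reverse arrangement, a gained form that was longer with fewer exons, was found in LOC100775516, LOC100800520, LOC100775394, LOC100527442, LOC100786460 and LOC100813157. LOC100775516 (chromosome 7, 14847159 to 14848224, minus strand) has only 2 forms in the table, an annotated 2-exon form of 734 bases and an assembled form of 1050 bases in a single exon. The 2-exon form held 92.2, 90.0 and 83.2% at t0. In the sucrose libraries it held 57.0, 0.0817, 0.101, 0.0878, 0.0186 and 54.1%. Libraries 5 to 8 were thus almost wholly in the single-exon form, while libraries 4 and 9 kept more than 50% in the spliced form. The summed FPKM varied widely within each time. It spanned 4.31 to 29.2 in the controls, 2.17 to 18.1 after 20 min and 11.8 to 22.2 after 40 min.

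LOC100527442 (chromosome 9) likewise has 2 forms, an annotated 3-exon form of 723 bases and an assembled 2-exon form that is 1501 bases longer and ends at the same base. The long form held 0.0159, 0.994 and 1.99% at t0 and 54.6, 65.2, 62.7, 61.4, 65.9 and 13.1% under sucrose, with library 9 apart from the other 5. Its FPKM averaged 0.0514 at t0, 6.06 at t20 and 14.3 at t40. By contrast, the short form did not give way to it in amount: its FPKM was 4.43 at t0, 4.14 at t20 and 23.1 at t40, of which library 9 alone had 48.6. This member is 1 of 3 in which the lost form had a higher mean FPKM in the sucrose libraries, the others being LOC100800520 and LOC100820355/LOC100306576. In LOC100775394 (chromosome 9, 12 forms) the assembled 17-exon form of 2482 bases was listed at 0% in every control library and held 59.3, 65.8, 54.8, 62.3, 10.3 and 70.0% under sucrose. Here too a single t40 library, library 8, stood apart from the others.

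LOC100786460 (chromosome 10) showed the same geometry, an annotated 2-exon form of 3403 bases against an assembled 3-exon form of 2546 bases. The 3-exon form held 28.4, 66.1 and 79.1% at t0, 4.88, 10.6 and 17.5% at t20, and was listed at 0% in all 3 t40 libraries. Joined with a near-identical 3-exon form it held 28.4, 76.9 and 89.8% at t0 and 17.9, 19.4, 28.7, 0, 0 and 9.31% under sucrose, so that library 6 overlapped control library 1 and the rule was no longer met. In LOC100813157 (chromosome 15, 7 forms) the annotated 4-exon form of 1707 bases held 90.0, 37.8 and 53.3% at t0 and 12.6, 21.5, 8.63, 6.75, 5.82 and 6.54% under sucrose. Library 2 differed from the other controls in this gene, with 61.2% in the gained 3-exon form where libraries 1 and 3 had 6.04 and 1.41%.

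The last 2 of the 15 members with the same ends and another exon number did not have the longer form with fewer exons. In LOC106799481/LOC113002268 (chromosome 7) a 2-exon noncoding form of 582 bases held 48.6, 44.3 and 78.5% at t0, 0, 22.1 and 0.525% at t20, and was listed at 0% throughout t40. Its FPKM went from 8.79, 7.59 and 14.2 at t0 to a highest value of 3.56 under sucrose. The assembled 3-exon form of 1685 bases had means of 2.93, 2.86 and 2.88 FPKM at t0, t20 and t40. The share of this 3-exon form was uneven at t20, with 54.8, 34.9 and 8.85% in libraries 4 to 6. A single-exon annotated form held 20.1, 1.00 and 0.652% at t0, 4.37, 26.8 and 49.5% at t20, and 4.50 to 5.15% at t40. In LOC100776157 (chromosome 11, 2 forms) the 25-exon assembled form held 68.6, 25.3 and 83.7% at t0 and at most 20.1% under sucrose, so that control library 2 lay 5.23 points from the nearest sucrose library.

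Among the 16 members with a moved end, the start of the gained form lay over 100 bases upstream of that of the lost form in 7 and downstream in 5, and only the 3′ end had moved in 4. LOC100779437 (chromosome 7, 9614664 to 9619340, plus strand) had both forms annotated and the same 3′ end. Its 4-exon form of 880 bases was the only form listed above 0 in the controls, at 100% in each, and held 49.3, 27.4, 23.4, 33.5, 34.2 and 0% in libraries 4 to 9. The 5-exon form, which starts 2926 bases further upstream, was listed at 0% in the controls and held 46.7, 35.0, 72, 50.04, 44.2 and 39.0% under sucrose. The sum stayed within the spread of its libraries, at 4.49 ± 2.13, 6.48 ± 2.15 and 6.20 ± 1.17 FPKM.

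LOC100820121 (chromosome 9, 5 forms) exchanged an annotated 34-exon form for a 36-exon form that starts 5325 bases upstream, but not evenly. The 34-exon form held 28.3, 96.2 and 88.2% at t0 and 0 to 15.5% under sucrose. The 36-exon form held 85.5, 96.4 and 81.7% in libraries 5, 7 and 8, but 22.0, 6.39 and 0% in libraries 4, 6 and 9, where other forms made up the rest. LOC100794313 (chromosome 13) had the highest mean summed FPKM of the members over the 9 libraries, 33.8, which rested on the controls, with 64.3 at t0 against 12.6 at t20 and 24.4 at t40. Its 6-exon form held 78.0, 76.7 and 59.8% at t0 and 0, 24.3, 0, 0.419, 46.4 and 15.1% under sucrose. In FPKM this form was 83.6, 44.0 and 16.9 in the controls and at most 18.6 in the sucrose libraries, whereas the 7-exon form that starts 1765 bases upstream stayed at means of 14, 10.9 and 12.8. The share difference was thus carried by the lost form.

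LOC100779499 (chromosome 9) lost share in an 18-exon form, with 92.3, 94.5 and 81.9% at t0 and 14, 55.7, 27.6, 8.81, 18.5 and 16.2% under sucrose. Its gained 19-exon form starts 309 bases upstream and was listed at 0% in the controls and in library 5, where the lost form was highest among the sucrose libraries. With a near-identical 18-exon form joined to it, the lost form held 100% in all 3 controls and also in library 5, against 9.39 to 40.3% in the other sucrose libraries, so the rule was no longer met. In LOC100817130 (chromosome 18, 11 forms) the 12-exon form held 86.0, 87.4 and 92.4% at t0 and 0, 0, 82.1, 45.1, 34.0 and 0% under sucrose, so that library 6 lay 3.96 points below the lowest control. The 13-exon form with a start 593 bases upstream reached 58.0% in library 5 and 21.7% or less in every other library, and the remaining share was spread over further forms. Of these, the near-identical 14-exon forms, joined, held 5.30 to 11.1% at t0 and 10.7 to 64.5% under sucrose. Their gain of 27.8 points, with overlap in library 6, was larger than the 12.4 points of the 13-exon form. LOC100817933 (chromosome 15) separated mainly at t40, where its 37-exon form was listed at 0% in all 3 libraries against 56.2, 88.3 and 63.0% at t0 and 50.8, 0 and 47.3% at t20. In LOC100815750 (chromosome 20) the gained and lost forms were assembled 3-exon forms whose starts lie 597 bases apart. The gained, longer one held 33.3, 24.7 and 26.5% at t0, 77.7, 74.0 and 68.0% at t20, and 95.6, 100 and 100% at t40. The lost one held 66.7, 0 and 58.4% at t0, and control library 2 instead had 75.3% in an annotated form.

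**Figure D2:**
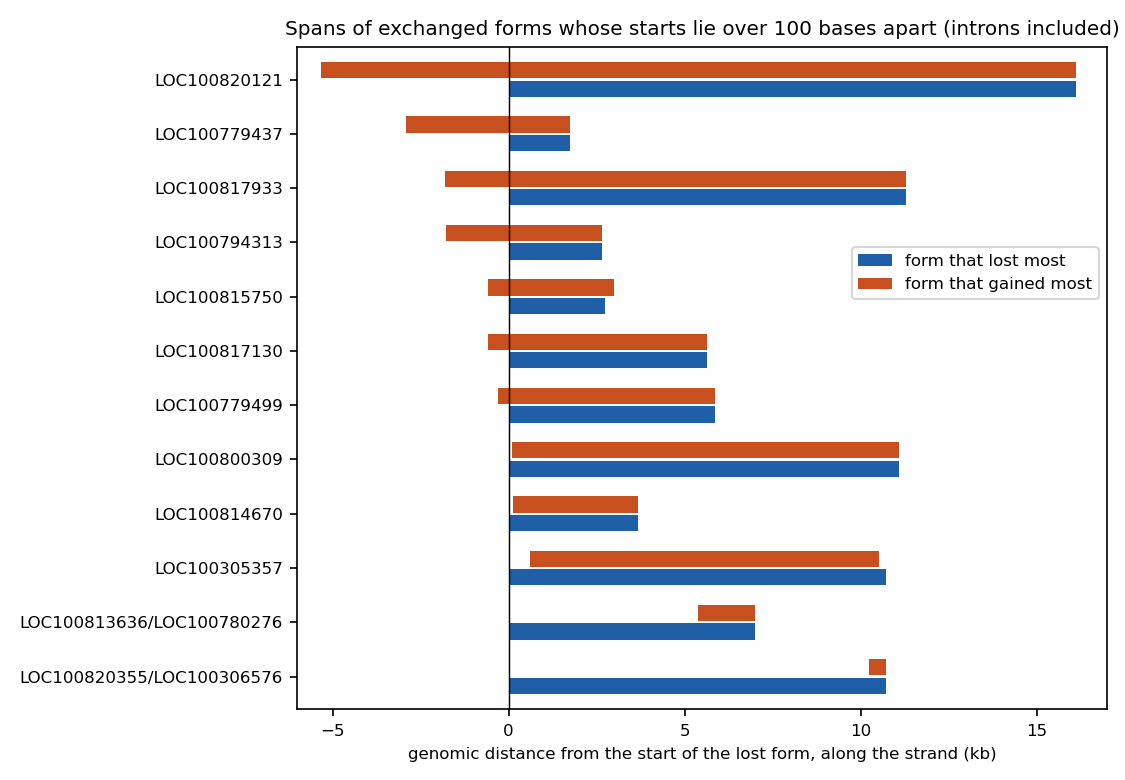
Genomic span of the gained (orange) and lost (blue) form of the 12 genes whose starts lie over 100 bases apart, in kilobases from the start of the lost form along the strand, introns included. The gained form starts upstream in 7 genes, by 309 to 5325 bases, and downstream in 5, by 106 to 10250 bases.

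A downstream start was found for the gained form of LOC100814670, LOC100800309, LOC100305357, LOC100820355/LOC100306576 and LOC100813636/LOC100780276. In the last 2 the identifier joins neighbouring annotated genes, and the gained form is a single-exon transcript of 466 and 1610 bases at the 3′ end of a longer lost form, 10250 and 5384 bases downstream of its start. For them a different share is thus also a different balance of annotated genes. LOC100813636/LOC100780276 (chromosome 5) had 0.0806, 0.0503 and 0.0389% of the single-exon form at t0 and 47.7, 47.9, 63.5, 43.7, 48.8 and 53.2% under sucrose. In FPKM it went from at most 0.0111 in the controls to between 10.1 and 18.5, while the lost 12-exon form was between 1.95 and 5.31 throughout. LOC100820355/LOC100306576 (chromosome 11) held 16.5, 0.0778 and 25.1% in its single-exon form at t0 and 39.7 to 87.3% under sucrose, and its lost form was level at 2.64, 2.91 and 2.48 FPKM.

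LOC100814670 (chromosome 4, minus strand) was even across libraries. Its annotated 7-exon form of 1979 bases held 79.3, 65.9 and 69.5% at t0, 19.8, 17.8 and 11.2% at t20, and 5.84, 7.06 and 6.64% at t40. All 3 groups were apart from each other, and the assembled 6-exon form that starts 133 bases downstream held 19.2 to 29.98% at t0 and 36.3 to 72.4% under sucrose. LOC100800309 (chromosome 13) came near it in geometry, with a start moved by 106 bases, but libraries 6 and 9 stood at 45.1 and 34.7% for the gained 15-exon form and the other 4 sucrose libraries at 85.2 to 88.1%, against 8.48 to 23.4% at t0. The lost 14-exon form of LOC100800309 overlapped, with 0.09, 58.6 and 52.4% at t0 and 42.3% in library 9. Control library 1 instead had 71.9% in another 14-exon form. LOC100305357 (chromosome 14) lost share in a 24-exon form that held 29.4, 70.2 and 97.6% at t0 and 8.42 to 21.1% under sucrose.

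The 4 members in which only the 3′ end had moved were LOC100781661, LOC100306090, LOC100799771 and LOC100796030. LOC100781661 (chromosome 2) had 2 forms of 2 exons each, and the gained one ended 130 bases further on. The gained form held 1.87, 1.94 and 2.04% at t0 and 3.15, 95.3, 92.8, 2.93, 95.6 and 100% in libraries 4 to 9. Libraries 4 and 7 were therefore at the level of the controls, 0.881 points above the highest of them, and the mean difference of 63.0 points describes 4 of the 6 sucrose libraries. In LOC100306090 (chromosome 11, 11 forms) the annotated single-exon form of 854 bases held 82.9, 64.9 and 58.7% at t0. Under sucrose it held 0.0119, 2.96, 0.0376, 0.714, 0.0107 and 50.2%, with library 9 apart from the others. Its place was taken by several forms, of which the assembled one ending 1902 bases downstream held 11.4 to 80.5%.

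LOC100799771 (chromosome 6) had 10 exons in both forms, with a 3′ end 421 bases further on in the assembled one. That form held 11.9, 18.3 and 20.6% at t0, 71.2, 43.8 and 83.5% at t20 and 74.0, 83.0 and 94.3% at t40, and its FPKM averaged 1.52, 6.56 and 9.61. LOC100796030 (chromosome 4) lost a 15-exon annotated form that held 94.1, 45.5 and 23.0% at t0 and was listed at 0% in all 6 sucrose libraries. Joined with a near-identical 15-exon form, however, it held 94.1, 97.4 and 98.5% at t0 and 76.6, 69.9, 96.5, 0, 0 and 85.9% under sucrose, which overlap in library 6, so the rule was no longer met (-41.8 points). The 14-exon form with its 3′ end moved by 198 bases held 100% in libraries 7 and 8 but 3.48 to 23.4% in the other 4.

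The remaining 7 members had both ends within 100 bases and the same number of exons in both forms, which were LOC100781718, LOC100801545, LOC100802452, LOC100776549, LOC100811678, LOC100819767 and LOC100784666. In such a pair only the reads over the differing parts can tell the forms apart. The lengths differed by 1 to 212 bases, and the inner exons of the forms were not compared. LOC100801545 (chromosome 5), for example, had 73.6, 59.7 and 64.7% in a 15-exon form of 11944 bases at t0 and 4.21, 2.94, 7.49, 4.43, 5.81 and 3.85% under sucrose. The gap of 52.2 points between the conditions was among the widest of all members, yet its 3 annotated forms all have 15 exons and, joined, make up 100% in every library. When forms with the same exon number and ends within 50 bases were joined, the difference in LOC100781718, whose 9-exon forms differ by 81 bases in length, likewise became 0 points.

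The joined difference of the other members of this class was -4.82 points in LOC100802452, 3.47 in LOC100776549, 22.7 in LOC100811678, 0.667 in LOC100819767 and -6.46 in LOC100784666. In LOC100784666 the starts of the exchanged forms lie 51 bases apart, and they were joined through a further form that lies within the limit of each. In LOC100802452 (chromosome 6) the 15-exon forms of 2361 and 2362 bases differ by 1 base in length. LOC100811678 (chromosome 5) had forms of 7850 and 7845 bases with 7 exons, and its summed FPKM was close at all times, at 15.1 ± 1.23, 15.7 ± 1.74 and 15.6 ± 0.763. Of all 38 members, 27 still met the rule with such forms joined, and over all 10778 genes 28 did, with the same 2 genes left out.

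**Figure D3:**
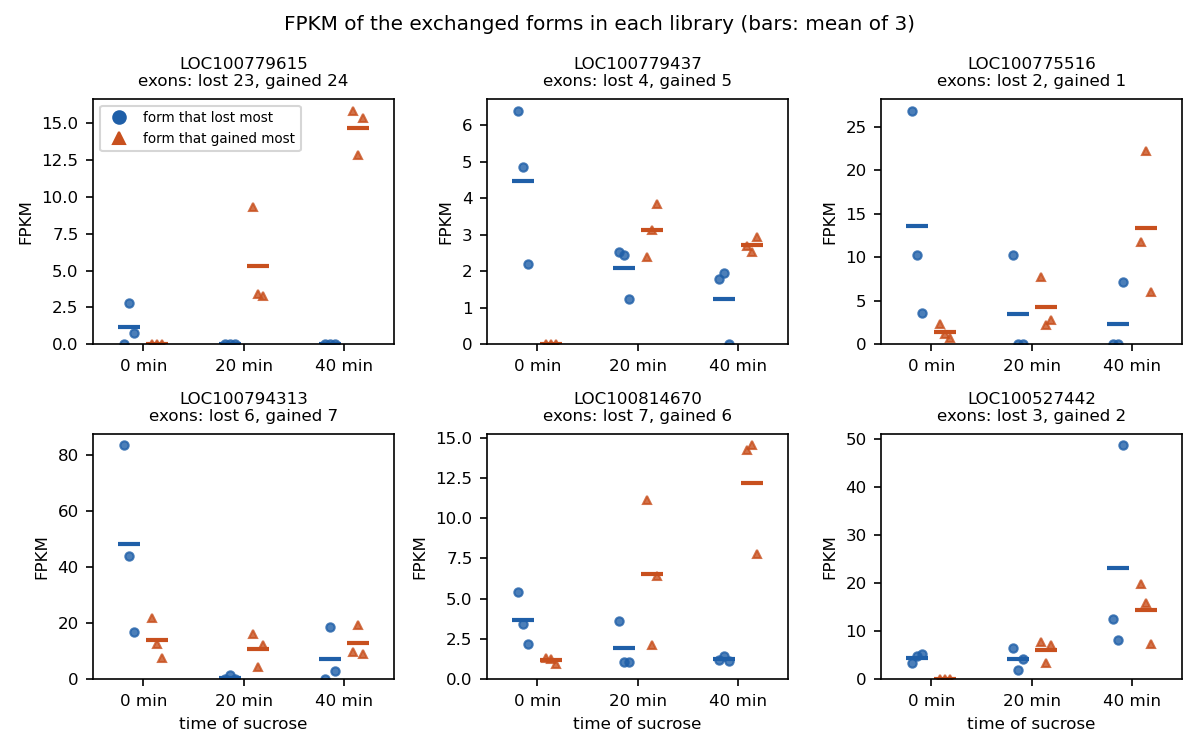
FPKM of the lost (blue circles) and gained (orange triangles) form in each library of 6 genes, with bars for the mean of 3 libraries at each time. The lost form of LOC100794313 is highest at 0 min, up to 83.6, while in LOC100527442 both forms are highest at 40 min.

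Seen as amounts, the lost form had a lower mean FPKM in the sucrose libraries in 35 of the 38 members. The gained form was listed at 0 in all 3 controls in 7, and the lost form at 0 in 1 or more sucrose libraries in 15. Summed FPKM was higher in all 6 sucrose libraries than in all 3 controls in 8 members (7.52% of the 10778 genes) and lower in 2 members (4.39%). The 8 were LOC100779615, LOC100820121, LOC100776549, LOC100811632, LOC100775394, LOC100820355/LOC100306576, LOC100800451 and LOC100813636/LOC100780276, and the 2 were LOC100781661 and LOC106799481/LOC113002268. In the other 28 members the sums of both conditions overlapped although the shares did not.

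Sums were also fitted with limma on log2(summed FPKM + 1) over 32763 gene identifiers, and called at an adjusted p under 0.05 and a log2 fold change of 1 or more in size. Against t0, 2 members were called higher at t20 (0.766% of all genes) and 0 lower (0.156%), while at t40 9 were called higher (10.5%) and 1 lower (3.49%). These contrasts share their control libraries with each other and with the rule, so the counts stand as a description. The members called higher at t20 were LOC100800451 and LOC100813636/LOC100780276. At t40 LOC100527442 had the highest log2 fold change, 2.74, followed by LOC100779615 with 2.37 and LOC100813157 with 2.24, and LOC106799481/LOC113002268 had -1.59. The median log2 fold change of the members was 0.28 at t20 and 0.36 at t40, against 0.02 and 0.06 over all genes tested. On this scale the change of a gene with low FPKM is understated. The genes tested had to reach a lower FPKM than the members, so the medians are not of like sets.

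The order of the sucrose times was not part of the rule, so the difference between t40 and t20 could be tested. The rule did use the shares at both times, however, so the share counts and medians set beside all genes or transcripts are a description. The share test took its spread from all 9 libraries, so the adjusted p of a member's share is not wholly free of the rule. The mean share had moved by at least 50 points from t0 in 28 members at t20 and in 31 at t40, and in 21 members at both. The t40 mean was further from t0 than the t20 mean in 21 of 38. The largest share difference between t40 and t20 within a gene had a median of 17.6 points in the members and 9.41 over all genes. With limma on the shares, 2 of the 169 transcripts of members tested differed between t40 and t20 at an adjusted p under 0.05 and by at least 10 points, against 0.112% of 43856 transcripts. At an unadjusted p under 0.05 there were 14 (5.81% of all).

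The first was in LOC100800520 (chromosome 8, 7444072 to 7448586, minus strand). Its annotated 11-exon form of 1379 bases held 96.4, 100 and 99.8% at t0, 71.5, 78.6 and 76.3% at t20, and 15.2, 18.6 and 3.03% at t40. The 3 groups did not overlap, and most of the loss lay between 20 and 40 min, with a difference of -63.2 points (SE 4.25, adjusted p = 0.00781, limma, lower in 3 of 3 t40 libraries than in any t20 library). The assembled 10-exon form of 1563 bases, which is longer with 1 exon fewer, held 0 to 3.61% at t0, 28.5, 7.63 and 23.7% at t20, and 84.8, 68.5 and 93.8% at t40. Its own difference of 62.4 points had an adjusted p of 0.0537 (limma) and did not pass. The sum was 2.65 ± 0.333, 5.94 ± 2.88 and 7.85 ± 1.79 FPKM. The call was kept with each single library left out (adjusted p 0.00244 to 0.0293), but on the arcsine square root of the share the adjusted p was 0.05003, just above the threshold.

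The second was in LOC100819767 (chromosome 9, 44803435 to 44808031, plus strand), where the assembled 10-exon form of 1848 bases held 3.25, 7.03 and 10.5% at t0, 5.62, 12.0 and 19.4% at t20, and 66.8, 80.8 and 73.0% at t40. The difference between t40 and t20 was 61.2 points (SE 4.77, adjusted p = 0.0149, limma, higher in 3 of 3 libraries). A second assembled 10-exon form, of 1772 bases, was the form that met the rule, with 75.3, 65.1 and 54.7% at t0 and 0 to 33.4% under sucrose. Both forms have the same exon number and ends within 50 bases. Joined with the other 10-exon form they held 78.9, 75.0 and 66.6% at t0, 61.2, 62.3 and 65.2% at t20, and 74.5, 92.1 and 89.7% at t40, so that much of the exchange lay among 10-exon forms. With only the t20 and t40 libraries in the fit, the adjusted p was 0.0555.

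For the sums, limma called 1 member higher at t40 than at t20 (1.30% of all genes) and 0 lower (0.058%), and 4 members reached an unadjusted p under 0.05 and a log2 fold change of 1 or more in size (5.18%). The member called was LOC100813157, with a summed FPKM of 1.83, 2.70 and 1.92 at t0, 5.63, 2.69 and 4.54 at t20, and 10.3, 11.9 and 20.9 at t40. The t40 libraries lay above all others, with a log2 fold change of 1.52 over t20 (SE 0.29, adjusted p = 0.0406, limma). The call was lost without library 1, 2, 5, 6, 7, 8 or 9 (adjusted p 0.0571 to 0.186) and with smaller pseudocounts. LOC100527442 came next, with a log2 fold change of 1.79 and an adjusted p of 0.0503 (limma), and LOC100815750 was lower at t40, with -1.68 and an adjusted p of 0.0916 (limma).

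**Figure D4:**
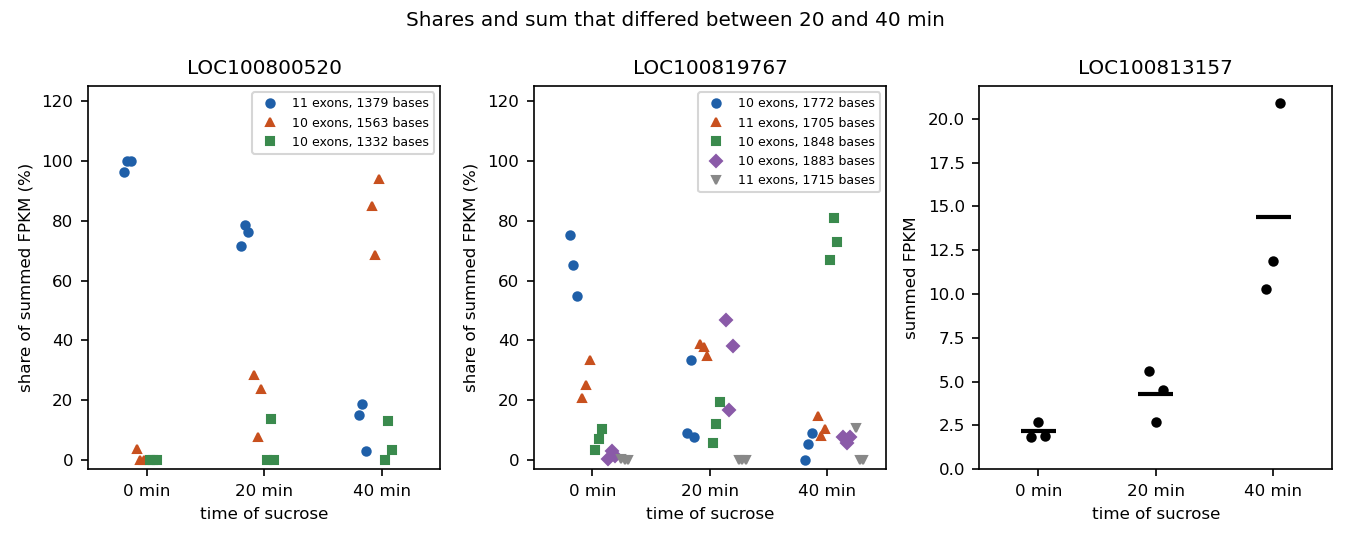
Shares of the forms of LOC100800520 and LOC100819767 (each form with at least 10% in 1 library) and summed FPKM of LOC100813157 (bars: mean of 3) in each library at 0, 20 and 40 min. The 11-exon form of LOC100800520 lies at 71.5 to 78.6% at 20 min and at 3.03 to 18.6% at 40 min.

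The shares of the members varied within conditions as well as between them. Within the 6 sucrose libraries the share of the form that met the rule ranged over at least 50 points in 13 members, and within the 3 controls in 8. The gap between the conditions was 0.696 to 66.3 points with a median of 17.1, under 10 points in 11 members and at least 30 points in 9. LOC100801545, LOC100814670, LOC100784666, LOC100813636/LOC100780276 and LOC100806690 combined a gap of at least 41.4 points with narrow ranges, while LOC100781661 and LOC100817130 combined small gaps with ranges of 97.1 and 82.1 points. The median within-group SD of the share of the main transcript was 18.0 points in the members and 11.3 over all genes, of which 29.5% had at least 18.0. Over genes with a mean summed FPKM at or below the members' median of 9.57 it was 13.7, and the median over all genes was 11.8 FPKM. The members were thus more variable and of somewhat lower level than all genes, and the part of both in the share differences was not tested.

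**Figure D5:**
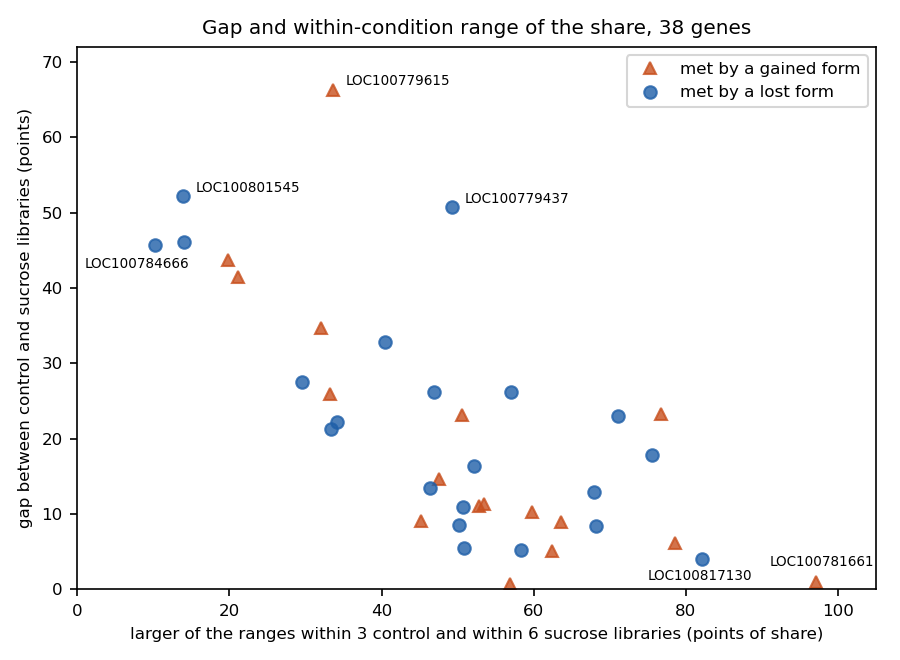
Gap between the control and the sucrose libraries in the share of the form that met the rule, against the larger of its ranges within the 3 control and within the 6 sucrose libraries, both in points of share, for 38 genes. LOC100779615 has the widest gap, 66.3 points, and 11 genes lie under 10 points.

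The rule asked for a difference over all 6 sucrose libraries and so largely fixes the distance of each, which is given as a description. Over the members, the median distance from the control mean was 54.9, 53.8 and 59.4 points in libraries 4, 5 and 6 and 61.0, 58.7 and 58.0 points in libraries 7, 8 and 9. Library 5 had 22 members at least 50 points from the control mean, library 7 had 33, and the other 4 had 28 or 29. The library nearest to the controls was library 5 or 9 in 9 members each, library 4 in 8, library 6 or 8 in 7 each and library 7 in 3. Leaving out each library in turn, 18 of the 38 members met the rule every time, and 13 of these also met it with near-identical forms joined. The 13 were LOC100779615, LOC100779437, LOC100775516, LOC100820121, LOC100781661, LOC100817130, LOC100814670, LOC100306090, LOC100799771, LOC100794313, LOC100800309, LOC100775394 and LOC100527442. The number of genes past the rule was 38 to 54 without a single sucrose library but 91, 95 and 108 without control library 1, 2 or 3. With 3 controls against 6 sucrose libraries, leaving out a control eases the condition of no overlap more. How much of the larger counts came from this, and how much from single control libraries, was not tested.

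Genes for splicing factors, RNA-binding proteins and RNA decay could not be set beside the members. The table and the reference give symbols but no product names, and the 12 symbols that matched the chosen prefixes (among them SRT1, PRP1 and SRC2) cannot be taken as splicing genes, so no counts are given for them.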

How the data were processed

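Root tip RNA of 9 plants was made into stranded mRNA libraries. According to the methods and the submitters' processing notes, the authors demultiplexed the reads with bcl2fastq 2.20, trimmed them with Trimmomatic 0.32, aligned them with HISAT2 to Glycine_max_v4.0, assembled transcripts with StringTie and extracted FPKM with Ballgown. The deposited table gives FPKM for each of 119600 transcripts in each library. StringTie divides reads that fit several forms of a gene among them, so a share is an estimate. The columns name the time but no replicate. A further 9 columns of values for each library, which hold coverage, were not used, and the depth per library that the study states was not used here.

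FPKM were summed over each of 62609 gene identifiers and shares were taken with pandas 2.3.3. Shares and log2(sum + 1) were fitted to all 9 libraries with limma 3.58.1 in R 4.3.3 (eBayes with a variance trend), with Benjamini-Hochberg adjustment over all features tested. Sums were tested where 3 or more libraries had an FPKM of at least 1, and shares needed genes past the same FPKM limits as the rule. The fits were tested on simulated data. Ends within 100 bases counted as the same. Alternatives were other limits, pseudocounts, scalings, a share with 1 FPKM added, medians, single times and leaving out each library.

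The members and lists were chosen with earlier results of these data known. Named genes were the 30 members with the largest share differences, those past a test of t40 against t20, those with both forms annotated, and 3 on each side of the threshold. LOC100807801, LOC100784666, LOC100792961 and LOC100305357 were added after their values were seen.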

Additional observations from a re-analysis of the deposited data

Results flagged for a closer look

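A set of 3 values differed between t20 and t40 by the test of that difference itself. The share of the annotated 11-exon form of LOC100800520 differed by -63.2 points (t40 minus t20, limma), the share of the assembled 10-exon form of 1848 bases of LOC100819767 by 61.2 points, and the summed FPKM of LOC100813157 by 1.52 on the log2 scale. All 3 t40 libraries lay on one side of all 3 t20 libraries in each of these.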

How the results depend on the processing

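No paired analysis was possible because the columns of the table carry no replicate numbers. The condition of no overlap is easier to meet with fewer libraries, as with single times or a library left out. The number of genes past the rule (38) was 68 with a limit of 40 points and 11 with 60 points, 67, 18 and 5 with a mean summed FPKM of at least 1, 10 and 20, 4 with 1 FPKM added to each transcript, 80 with only t20 and 159 with only t40 set against t0, and 38 to 108 when leaving out each library in turn. With 1 FPKM added, the members kept were LOC100779615, LOC100775516, LOC100781661 and LOC100794313, and the median share difference of the members was 38.4 points in size. With the median share in place of the mean, 32 members were kept. The share differences of the members kept their direction with 1 FPKM added, with medians and in the 339 differences recomputed with a library left out. LOC100808673 without library 5 and LOC100815750 without library 4 or 6 fell below the FPKM limit and gave no value. Joining near-identical forms, chosen after seeing the data, turned the difference of LOC100819767 to 0.667 points and left 0 points in LOC100781718 and LOC100801545.

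Of the transcript shares of members that differed between t40 and t20 (2), 1 was called with the arcsine square root, and 2 to 3 when leaving out each library in turn. Of the gene sums of members (1), 0 were called with a pseudocount of 0.1 or 0.5, with no filter on low values or with only the t20 and t40 libraries in the fit, and 0 to 4 when leaving out each library in turn. The sum of LOC100813157 had an adjusted p of 0.0796, 0.0519, 0.0863 and 0.0743 (limma) in the first of these settings. Over all genes, 444 sums were called, and 17 with a pseudocount of 0.1 and 0 to 1302 when leaving out each library in turn, 0 of them without library 8 or 9. Over all transcripts 49 shares were called, and 35 to 142 under the alternatives. Causes of these changes were not tested. Depth limits how finely shares can be told apart, and the FPKM do not carry it.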
